A study of Mus musculus with 48 samples.

Results

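Nr1d1 and Nr1d2 encode REV-ERBα and REV-ERBβ, a pair of nuclear receptors of the circadian clock. Both genes were identified by their Ensembl identifiers among the genes of a read count table of mouse colon, so 2 of 55401 listed genes are described. The table holds 48 mice, 4 in each of 12 groups. Bmal1iec-/- mice carried a floxed Bmal1 gene together with Cre recombinase driven by the Villin promoter, which is active in the intestinal epithelium and not in the other cells of the gut wall. Their littermates, Bmal1fl/fl, carried the same floxed alleles without Cre and served as controls. All animals were adult males on a C57BL/6J background, taken at circadian times (CT, in hours) 1, 5, 9, 13, 17 and 21 during their second day without light. The comparison asks what happens to the Rev-erb transcripts of the colon over the circadian day when the epithelial clock is removed.

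BMAL1, encoded by Arntl, pairs with CLOCK or NPAS2 and activates genes through E-boxes, short DNA elements that are present in the Rev-erb genes. REV-ERB proteins bind heme, recruit the corepressor NCOR1 with the histone deacetylase HDAC3, and repress transcription from ROR elements, where they compete with the activating ROR receptors. Arntl itself is among the genes repressed in this way, and in many tissues the Rev-erb transcripts therefore rise when Arntl falls.

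Nr1d1 (ENSMUSG00000020889) lies on the minus strand of chromosome 11 at 98767932 to 98775333 (GRCm38, GENCODE vM21), has 2 annotated transcripts and 3077 bases of exon. Nr1d2 (ENSMUSG00000021775) lies on the minus strand of chromosome 14 at 18204054 to 18239127, has 4 annotated transcripts and 5409 bases of exon. The promoter windows of both genes are shown because BMAL1 acts on such sequences. Each runs from 250 bases before to 50 bases after the RefSeq start of transcription on GRCm38.p6, at chr11:98775328-98775627 and chr14:18239057-18239356, read 5′ to 3′ on the gene's strand, with matches to the searched motifs in capitals.
Nr1d1: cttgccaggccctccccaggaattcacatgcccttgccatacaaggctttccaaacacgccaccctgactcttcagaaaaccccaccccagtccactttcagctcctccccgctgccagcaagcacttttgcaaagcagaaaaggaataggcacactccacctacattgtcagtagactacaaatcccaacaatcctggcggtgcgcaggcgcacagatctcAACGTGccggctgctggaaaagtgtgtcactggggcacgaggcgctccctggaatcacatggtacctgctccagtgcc
Nr1d2: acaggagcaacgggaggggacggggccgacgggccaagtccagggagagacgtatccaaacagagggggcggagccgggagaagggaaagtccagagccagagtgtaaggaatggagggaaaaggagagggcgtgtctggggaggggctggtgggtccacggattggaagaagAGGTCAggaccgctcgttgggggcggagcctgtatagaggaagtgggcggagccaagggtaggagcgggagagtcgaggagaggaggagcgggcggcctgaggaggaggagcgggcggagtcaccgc
Both strands were searched for the E-box CACGTG, its variant CACGTT, the receptor half-site AGGTCA, the paired REV-ERB site RevDR2 (the half-site repeated with a gap of 2 bases, so that each match also counts as a half-site) and the D-box TTATGNAA. The Nr1d1 window held 1 match to CACGTT, on the opposite strand and therefore printed as AACGTG, 28 bases before the start. The Nr1d2 window held 1 match to AGGTCA, 77 bases before the start. Of 32544 promoter windows of the same length, 4.71% held CACGTT and 16.2% held AGGTCA, while CACGTG was present in 7.17%, TTATGNAA in 3.39% and RevDR2 in 0.00922%. CACGTG, TTATGNAA and RevDR2 are in neither window, which says nothing about more distant elements.

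Each library held 3144997 to 4785844 counted reads, and levels are given as normalised read counts, that is, counts divided by DESeq2 size factors. A count of 0 would allow up to 3 counts per mouse at this depth, counting error only, and both genes were above this in each of the 48 mice. Nothing in the labels gives a batch. The Bmal1iec-/- mice SV384 and SV385 at CT1 stood apart: their mean correlation with their own group was 0.961 and 0.954, the lowest of all libraries. The Bmal1iec-/- mice SV410 and SV418 at CT9 came close, both with 0.962. The summed smooth muscle markers were 3391 normalised counts in 1 mouse of the pair and 12772 in the other, against 13517 to 21499 in the control mice. Over all 48 mice 24.7% of 14618 genes were called at CT1, and without this pair 1.21% of 15073 genes. Leaving out the pair also reduces the Bmal1iec-/- group at CT1 to 2 mice against 4 control mice. The part of this smaller group in the fall of the calls was not tested. The tests of Nr1d1 and Nr1d2 at CT1 are therefore given with and without the pair. Epithelial markers were abundant in each group, with summed levels of 103835 to 136700 normalised counts in control and 90927 to 143579 in Bmal1iec-/- mice. The smooth muscle markers summed to 3391 to 19842 in Bmal1iec-/- mice. In the genotype effect 1 of 6 smooth muscle, 1 of 5 fibroblast, 1 of 4 neuron and glia and 2 of 3 endothelium markers were called lower in edgeR, and of 9 epithelial markers 3 higher and 1 lower, while the median log2 fold change was -0.24 over the smooth muscle markers. Of all genes tested 5.56% were called lower and 6.4% higher. An unadjusted p under 0.05 was found for 6 of 6 smooth muscle, 3 of 3 endothelium, 3 of 4 neuron and glia, 2 of 5 fibroblast and 5 of 9 epithelial markers. Macrophage, T cell and B cell markers gave no call, although 2 of 4 tested T cell markers had an unadjusted p under 0.05. The part of these markers in the results below was not tested. Since colon RNA comes from mixed cells, fewer cells of a type and less RNA per cell cannot be told apart.

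Arntl, the targeted gene, served as the check of the labels. Its count covers all exons, the floxed part included, and all cell types, so a reduced total was not required for a correct label. At CT9 the mean was 26.2 ± 8.74 (SD, n = 4) in control, its daily minimum, and at CT1 258 ± 17.9 (SD, n = 4), its maximum. Bmal1iec-/- groups were lowest and highest at the same times, with 112.5 ± 30.8 and 138 ± 43.2 (SD, n = 4 each). The daily course of Arntl was thus 9.84-fold from the lowest to the highest group mean in control and 1.23-fold in Bmal1iec-/- mice. Without mice SV384 and SV385 the Bmal1iec-/- mean at CT1 was 176 ± 6.74 (SD, n = 2), so that the course was wider. The rhythm of Arntl differed between the genotypes (edgeR's quasi-likelihood F test on the cosine terms, Benjamini-Hochberg adjusted p = 9.40e-14), whereas its level with circadian time in the model had a log2 fold change of 0.22 (standard error, SE, 0.18, edgeR adjusted p = 0.458), which did not pass the threshold.

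Nr1d1 fell in Bmal1iec-/- mice. In control colon the transcript rose through the circadian day and almost vanished in the late night. The control mice had 157, 75.3, 143 and 112 normalised counts at CT1, and 435, 402.4, 531 and 388 at CT5. At CT9 they had 704, 406, 555 and 543. The highest levels of Nr1d1 were thus in the middle of the circadian day. At CT13 the control mice had 117, 137, 159 and 156 normalised counts. At CT17 they had 31.7, 44.4, 41.1 and 53.5, and at CT21 7.57, 13.9, 17.1 and 16.5. The control mean was 552 ± 122 (SD, n = 4) at the maximum, CT9, against 13.8 ± 4.37 (SD, n = 4) at the minimum, CT21, a 40.0-fold daily range.

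A daily course was also present in Bmal1iec-/- mice, at a lower level. Nr1d1 had 13.5, 11.6, 16.8 and 26.5 normalised counts at CT1, the first pair being mice SV384 and SV385. It had 197, 156, 151 and 249.6 at CT5, and 201.2, 245, 146 and 59.2 at CT9. The last of these values, from mouse SV418, lay below every other Bmal1iec-/- value at CT5 and CT9. At CT13 the values were 66.7, 61.1, 44.8 and 57.6, at CT17 17.4, 21.2, 16.9 and 15.9, and at CT21 8.34, 9.17, 6.09 and 3.98. Group means ran from 6.90 ± 2.34 (SD, n = 4) at CT21 to 188 ± 45.7 (SD, n = 4) at CT5, a 27.3-fold range. All Bmal1iec-/- values were below all control values at CT1, CT5, CT9, CT13 and CT17, and the groups overlapped at CT21, where both were near the lowest level of the day.

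Nr1d2, the paralog with the flatter rhythm, fell as well. The control mice had 327, 184, 248.5 and 201.5 normalised counts at CT1, and 478.2, 468.1, 543 and 443.5 at CT5. At CT9 they had 825, 628, 930.3 and 901, the highest levels of the day. At CT13 they had 598, 499, 582 and 500.1, at CT17 301, 338, 298 and 302, and at CT21 101, 109, 114 and 104. In contrast to Nr1d1, Nr1d2 was still well expressed in the night, with a control mean of 309.6 ± 18.8 (SD, n = 4) at CT17 and 107 ± 5.51 (SD, n = 4) at CT21.

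Nr1d2 in Bmal1iec-/- mice had 41.7, 40.5, 78.6 and 72.4 normalised counts at CT1, where mice SV384 and SV385 gave the lower pair. The values were 174, 216, 168 and 151 at CT5, and 235, 233, 227 and 161 at CT9, mouse SV418 being again the lowest. At CT13 they were 212, 177, 146 and 155, at CT17 118, 86.5, 39.5 and 66.5, and at CT21 32.4, 36.7, 34.1 and 27.9. The genotypes did not overlap at any of the 6 circadian times. The share of all 14618 genes with every Bmal1iec-/- value below every control value was 8.43% at CT1, 1.85% at CT5, 2.25% at CT9, 6.38% at CT13, 2.7% at CT17 and 2.33% at CT21. It was 14.2% at CT1 without mice SV384 and SV385, which leaves 2 Bmal1iec-/- mice there and makes separation by chance more likely.

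**Figure D1:**
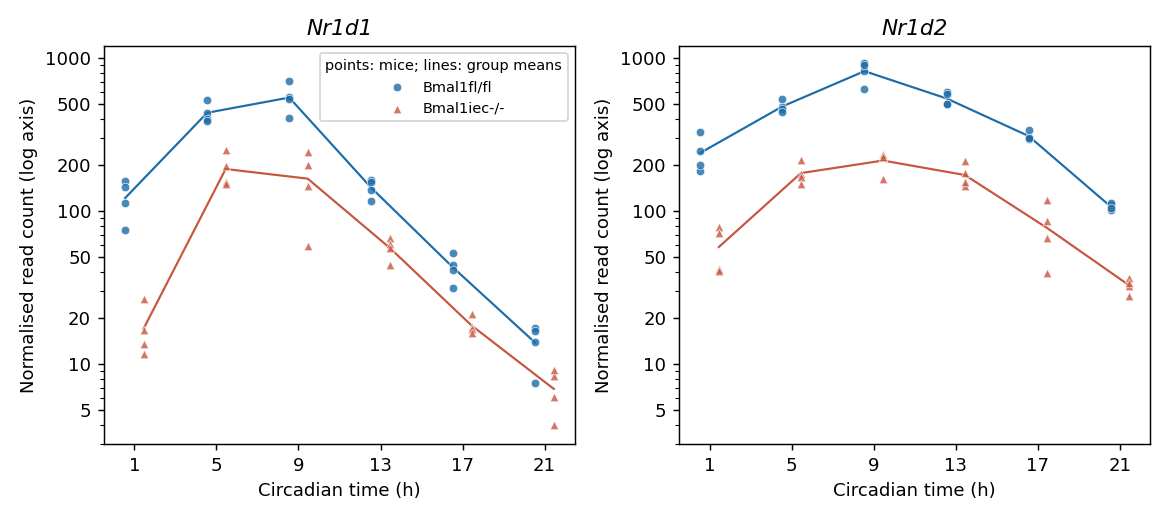
Normalised read counts of Nr1d1 and Nr1d2 (log axis) in each of 48 mice against circadian time in hours, with control mice as circles, Bmal1iec-/- mice as triangles and lines through the group means of 4 mice. Both genes follow a daily course in both genotypes, and the Bmal1iec-/- mice lie below the control mice except for Nr1d1 at CT21, where the groups overlap.

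Averaged over the day and with circadian time in the model, Nr1d1 fell by 1.56 in log2 units (SE 0.13, 95% interval -1.82 to -1.30), so that the level in Bmal1iec-/- mice was 33.9% of control (edgeR's quasi-likelihood F test, Benjamini-Hochberg adjusted p = 2.04e-13). Nr1d2 fell by 1.79 (SE 0.08, 95% interval -1.95 to -1.62), which is 29.0% of control (adjusted p = 1.96e-23 in edgeR). Both members were therefore called lower, while 5.56% of the 14618 genes were called lower in this comparison. Leaving out any 1 mouse gave log2 fold changes between -1.62 and -1.48 for Nr1d1 and between -1.82 and -1.75 for Nr1d2. Without mice SV384 and SV385 the values were -1.49 (SE 0.12) and -1.74 (SE 0.08).

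At single circadian times, Nr1d1 was called lower at 4 of 6 times and Nr1d2 at 6 of 6. The share of all genes called lower was 11% at CT1, 0.123% at CT5, 0.65% at CT9, 1.75% at CT13, 0.54% at CT17 and 0.178% at CT21. For Nr1d1 the widest gap was at CT1, where it fell by 2.80 in log2 units (SE 0.32, adjusted p = 9.62e-08), and without mice SV384 and SV385 it fell by 2.48 (SE 0.40, adjusted p = 0.000222). It fell by 1.21 at CT5 (SE 0.22, adjusted p = 0.000853), by 1.75 at CT9 (SE 0.22, adjusted p = 2.59e-07) and by 1.31 at CT13 (SE 0.25, adjusted p = 0.000687). At CT17 the log2 fold change of Nr1d1 was -1.26 (SE 0.35, adjusted p = 0.0740), and at CT21 -0.99 (SE 0.52, 95% interval -2.04 to 0.06, adjusted p = 0.749). All of these values are from edgeR, with p adjusted over all genes tested. The call at CT17 depended on the tool, since DESeq2 gave -1.26 with an adjusted p of 0.00603. The night contrasts rest on few reads, with 16 to 62 raw counts per mouse at CT17 and 4 to 20 at CT21.

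Nr1d2 was reduced at every circadian time sampled. It fell by 2.02 on the log2 scale at CT1 (SE 0.21, adjusted p = 5.06e-09), by 1.45 at CT5 (SE 0.18, adjusted p = 2.99e-07) and by 1.93 at CT9 (SE 0.17, adjusted p = 5.12e-11) in edgeR (Benjamini-Hochberg). It fell by 1.67 at CT13 (SE 0.18, adjusted p = 3.47e-09), by 1.99 at CT17 (SE 0.19, adjusted p = 5.10e-10) and it fell by 1.71 at CT21 (SE 0.24, adjusted p = 7.65e-06) in the same test. The remaining level was 24.6% of control at CT1 and 36.6% at CT5. Without mice SV384 and SV385, Nr1d2 fell by 1.67 at CT1 (SE 0.24, adjusted p = 3.26e-05, edgeR), so that CT1 no longer had the strongest reduction.

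**Figure D2:**
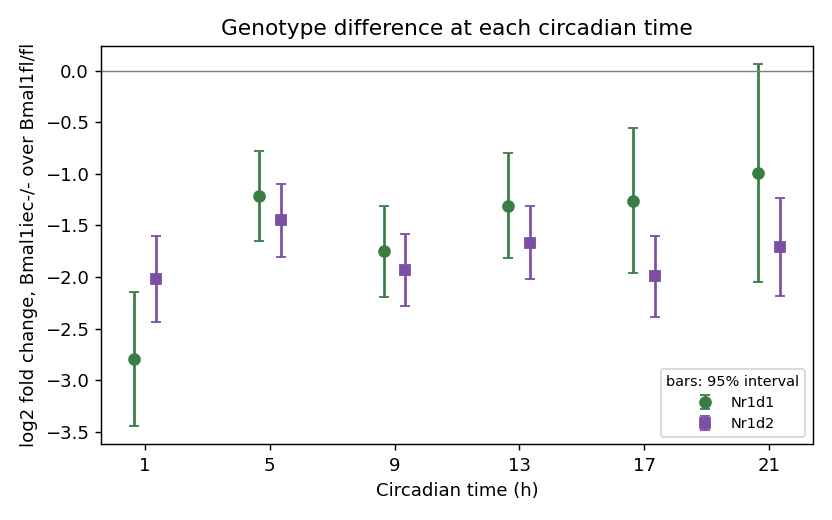
log2 fold change of Nr1d1 (circles) and Nr1d2 (squares) in Bmal1iec-/- over control mice at each circadian time, with bars for the 95% interval from edgeR. The interval of Nr1d1 at CT21 reaches above 0, and the other 11 intervals lie below it.

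Whether the loss depended on circadian time was tested directly. The genotype by time interaction gave an adjusted p of 0.0820 for Nr1d1 and 0.528 for Nr1d2 (edgeR's quasi-likelihood test on 5 degrees of freedom, Benjamini-Hochberg adjustment), while 3.98% of genes were called, or 0.504% without mice SV384 and SV385. For Nr1d1 this result depended on the setting. The adjusted p was 0.584 without mice SV384 and SV385, 0.00749 in DESeq2's likelihood ratio test, and 0.0340, 0.0436 and 0.0237 in edgeR when mouse SV410 at CT9, mouse SV480 at CT1 or mouse SV418 at CT9, all Bmal1iec-/-, was left out. For Nr1d2 it stayed between 0.235 and 0.716 with each mouse left out.

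Ordered by level, the 12 groups of Nr1d1 ran from control at CT9 to Bmal1iec-/- at CT21. Control at CT9 and CT5 overlapped in range and stood above all others. Bmal1iec-/- at CT5 and CT9, control at CT13 and control at CT1 followed, each overlapping the next. Of 11 pairs of neighbours in this order, 8 overlapped for Nr1d1 and 7 for Nr1d2. For Nr1d2 the highest Bmal1iec-/- group, CT9 with 214 ± 35.5 (SD, n = 4), came after control at CT1 with 240.3 ± 64.0 (SD, n = 4), and 5 of the 6 control groups were above every Bmal1iec-/- group mean. The exception was control at CT21, which came below 3 Bmal1iec-/- groups.

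Per kilobase of exon, the levels of the 2 genes were close at the daily maximum. In control mice at CT9 the level of Nr1d1 was 179 ± 39.6 (SD, n = 4) and that of Nr1d2 152 ± 25.2 (SD, n = 4) normalised counts per kilobase. At CT21 the level was 4.48 ± 1.42 (SD, n = 4) for Nr1d1 and 19.8 ± 1.02 (SD, n = 4) for Nr1d2. In Bmal1iec-/- mice at CT9 the levels per kilobase were 53.0 ± 26.03 (SD, n = 4) and 39.6 ± 6.56 (SD, n = 4). In both genotypes the mean level per kilobase was higher for Nr1d1 at CT5 and CT9 and higher for Nr1d2 at the other 4 times.

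Steps between neighbouring circadian times placed the rise and the fall. In control mice Nr1d1 rose by 3.11 on the log2 scale from CT21 to CT1 (SE 0.32, adjusted p = 8.12e-09) and by 1.85 from CT1 to CT5 (SE 0.23, adjusted p = 7.86e-07), both in edgeR (Benjamini-Hochberg). In Bmal1iec-/- mice the larger step was the later one. The step from CT21 to CT1 was 1.31 (SE 0.52, adjusted p = 0.105) and that from CT1 to CT5 was 3.44 (SE 0.31, adjusted p = 2.96e-10) in the same test, or 1.62 (SE 0.60, adjusted p = 0.143) and 3.13 (SE 0.39, adjusted p = 5.86e-06) without mice SV384 and SV385. The share of all genes called higher in the step from CT21 to CT1 was 10.1% in control and 4.41% in Bmal1iec-/- mice, and in the step from CT1 to CT5 0.67% and 4.51%. In either direction the share called in Bmal1iec-/- mice was, without mice SV384 and SV385, 1.24% from CT21 to CT1 and 0.0663% from CT1 to CT5. The difference between the genotypes in these single steps was not tested apart from the interaction above.

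The step of Nr1d1 from CT5 to CT9 passed the threshold in neither genotype, at 0.33 in control (SE 0.21, adjusted p = 0.673) and -0.20 in Bmal1iec-/- mice (SE 0.23, adjusted p = 0.949, edgeR). From CT9 to CT13 Nr1d1 fell by 1.96 in control and by 1.52 in Bmal1iec-/- mice, and from CT13 to CT17 by 1.72 and by 1.67, with adjusted p of 6.26e-08, 0.00170, 0.000208 and 0.00348 (edgeR's quasi-likelihood test, Benjamini-Hochberg). The share of genes called lower in these steps was 6.77% and 0.424% from CT9 to CT13 and 0.315% and 1.67% from CT13 to CT17, control first. The last step, from CT17 to CT21, was -1.62 (adjusted p = 0.0515, edgeR) in control and -1.35 (adjusted p = 0.643, edgeR) in Bmal1iec-/- mice.

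Nr1d2 rose in control mice at 3 successive steps, by 1.16 from CT21 to CT1, 1.01 from CT1 to CT5 and 0.77 from CT5 to CT9, with adjusted p of 5.95e-05, 0.00103 and 0.0117 (edgeR's quasi-likelihood test, Benjamini-Hochberg). It then fell by 0.60 to CT13, by 0.81 to CT17 and by 1.53 to CT21 (adjusted p = 0.0117, 0.00883 and 1.29e-06, same test). In Bmal1iec-/- mice the steps of Nr1d2 were 0.85 from CT21 to CT1 (adjusted p = 0.0350) and 1.58 from CT1 to CT5 (adjusted p = 1.14e-05), followed by 0.29 to CT9 (adjusted p = 0.873) and -0.33 to CT13 (adjusted p = 0.439) in edgeR. Without mice SV384 and SV385 the first 2 of these were 1.19 (SE 0.28, adjusted p = 0.0295) and 1.23 (SE 0.24, adjusted p = 0.0158). It fell by 1.14 from CT13 to CT17 (adjusted p = 0.000930) and by 1.25 from CT17 to CT21 (adjusted p = 0.0388) in the same test. The call of the step from CT5 to CT9 in control was lost on leaving out 1 of mice SV412, SV443, SV415 or SV447 (adjusted p up to 0.0828). The call from CT21 to CT1 in Bmal1iec-/- mice was lost without 1 of mice SV470, SV444, SV445, SV479 or SV480 (up to 0.116), and that from CT17 to CT21 without 1 of SV470, SV471, SV444, SV416, SV437 or SV445 (up to 0.284). The percentage of genes called higher from CT5 to CT9 in control was 0.219%, and lower from CT9 to CT13 6.77% and from CT17 to CT21 0.0547% in control and 0.0137% in Bmal1iec-/- mice.

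Both genes were rhythmic in the colon RNA of both genotypes. This RNA also comes from cells of the gut wall without Cre, and in Bmal1iec-/- mice their part and that of the epithelium cannot be told apart. With JTK_cycle, a rank test for a 24 h rhythm whose null distribution is exact, Nr1d1 had exact p = 1.27e-09 in 24 control mice and p = 2.71e-07 in 24 Bmal1iec-/- mice, or 1.34e-06 and 0.000283 after Benjamini-Hochberg adjustment over genes. Nr1d2 had an exact p = 1.81e-11 in control, the smallest of 14618 genes, and p = 3.48e-09 in Bmal1iec-/- mice, the third smallest, or 2.65e-07 and 1.69e-05 after the same adjustment. At p under 0.05 this test called 48.5% of genes in control and 28.2% in Bmal1iec-/- mice. In contrast to both Rev-erb genes, Arntl had an exact p = 1.27e-09 in control and 0.160 in Bmal1iec-/- mice. In edgeR's test on the cosine terms, Arntl in Bmal1iec-/- mice had an adjusted p of 0.225, or 0.0643 without mice SV384 and SV385.

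A cosine of 24 h fitted to the normalised counts gave the size and timing of the rhythm. The amplitude of Nr1d1, the distance from the daily mean to the peak of the curve, was 271 ± 25.9 (SE) in control and 94.96 ± 13.6 (SE) normalised counts in Bmal1iec-/- mice, which is 34.98% of control. That of Nr1d2 was 319.9 ± 24.1 (SE) and 96.0 ± 7.59 (SE), which is 30.0% of control. The daily mean fell in proportion, from 219 ± 18.3 (SE) to 75.1 ± 9.60 (SE) for Nr1d1 and from 417.7 ± 17.01 (SE) to 122 ± 5.37 (SE) for Nr1d2. Amplitude relative to the daily mean was therefore 1.24 ± 0.16 (SE) in control and 1.26 ± 0.24 (SE) in Bmal1iec-/- mice for Nr1d1, with a difference of 0.02 and a 95% interval from -0.56 to 0.61. For Nr1d2 it was 0.77 ± 0.07 (SE) and 0.79 ± 0.07 (SE), with a difference of 0.02 (95% interval -0.17 to 0.22). The fitted amplitude of Nr1d1 exceeds its fitted daily mean in both genotypes, so the curve turns negative at its trough. A cosine thus describes the counts of Nr1d1 only roughly, with a residual SD of 89.8 in control and 47.0 in Bmal1iec-/- mice.

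The fitted peak of Nr1d1 was at CT7.43 ± 0.36 h (SE) in control and CT7.45 ± 0.55 h (SE) in Bmal1iec-/- mice, a difference of 0.02 h (95% interval -1.31 to 1.34 h). That of Nr1d2 was at CT9.45 ± 0.29 h (SE) and CT9.16 ± 0.30 h (SE), a difference of -0.29 h (95% interval -1.13 to 0.55 h). Within the same mice Nr1d2 peaked 2.02 h after Nr1d1 in control (95% interval 1.36 to 2.69 h) and 1.72 h after it in Bmal1iec-/- mice (95% interval 0.64 to 2.79 h). With log2 values the peak of Nr1d1 was at CT7.62 in control and CT8.25 in Bmal1iec-/- mice, a difference of 0.63 h (95% interval -0.16 to 1.41 h). The delay of Nr1d2 was then 1.87 h in control and 1.01 h in Bmal1iec-/- mice. The best phase of Nr1d1 in JTK_cycle, in steps of 2 h, was CT7 in control and CT9 in Bmal1iec-/- mice. On the log2 scale, a change of rhythm between the genotypes was not detected for either gene, with an adjusted p of 0.864 for Nr1d1 and 0.907 for Nr1d2 (edgeR's quasi-likelihood test on the cosine terms, Benjamini-Hochberg), where 1.92% of genes were called. The log2 amplitude of Nr1d1 was 2.52 ± 0.15 (SE) and 2.30 ± 0.19 (SE), a difference of -0.21 (95% interval -0.70 to 0.28), and that of Nr1d2 1.29 ± 0.09 (SE) and 1.37 ± 0.12 (SE), a difference of 0.08 (95% interval -0.22 to 0.38).

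The balance between the paralogs was followed within each mouse as the log2 ratio of Nr1d2 to Nr1d1 normalised counts, with 1 added to each. In control mice the mean ratio was 0.99 ± 0.22 (SD, n = 4) at CT1, reached its minimum of 0.14 ± 0.08 (SD, n = 4) at CT5 and climbed to 2.93 ± 0.45 (SD, n = 4) at CT21. In the Bmal1iec-/- groups it was 1.72 ± 0.32 (SD, n = 4) at CT1, -0.07 ± 0.51 (SD, n = 4) at CT5 and 2.14 ± 0.34 (SD, n = 4) at CT21. The ratio was thus shifted to Nr1d2 at CT1 by a difference of 0.72 (Bmal1iec-/- minus control) and to Nr1d1 at CT17 and CT21 by -0.89 and -0.79. The groups did not overlap at CT1 and CT21. The exact two-sided permutation test of 4 against 4 mice gave p = 0.0286 at CT1 and CT21, the smallest value this design allows, and p = 0.0571 at CT13 and CT17. After adjustment over the 6 times all 4 had p = 0.0857 (exact permutation), so none passed the threshold. Over all times the difference was -0.26 (permutation within circadian times, p = 0.0551), and with 5 in place of 1 added to the counts it was -0.34 (permutation p = 0.0101). It also had a permutation p between 0.0178 and 0.0483 on leaving out 1 of mice SV401, SV477, SV397, SV434, SV478, SV416, SV445, SV479, SV468 or SV418, while with any other mouse left out p stayed above 0.05 (up to 0.0975). The difference without mice SV384 and SV385 was 0.80 at CT1 (exact permutation, adjusted p = 0.200) and -0.25 over all times (permutation p = 0.0882). At CT1 this leaves 2 Bmal1iec-/- against 4 control mice, too few for the exact test to pass the threshold with any values.

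**Figure D3:**
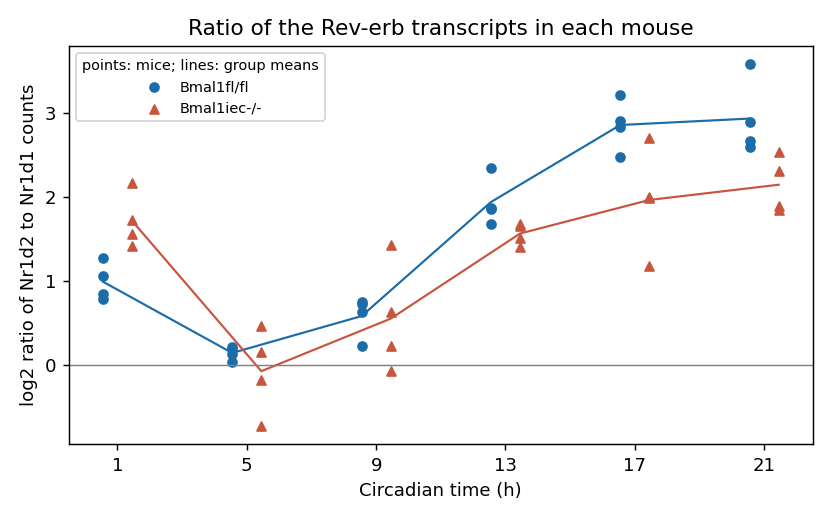
log2 ratio of Nr1d2 to Nr1d1 normalised counts in each mouse against circadian time in hours, with control mice as circles, Bmal1iec-/- mice as triangles and lines through the group means of 4 mice. The ratio is lowest at CT5 in both genotypes, and the groups are separate at CT1 and CT21.

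Genes known to be repressed by REV-ERB through ROR elements were examined next. Of 5 such clock genes, all tested, 3 were higher in Bmal1iec-/- mice and the other 2 were not called, with a median log2 fold change of 1.05 beside a median of 0.00061 over all genes, of which 6.4% were called higher. Npas2, a partner of BMAL1, rose by a log2 fold change of 1.33 (SE 0.12, adjusted p = 2.14e-12), and Cry1, a repressor of the clock, by 1.31 (SE 0.13, adjusted p = 1.15e-10). Nfil3, a repressor of D-box genes, rose by 1.05 (SE 0.14, adjusted p = 3.11e-07). These p-values are edgeR's, adjusted by Benjamini-Hochberg. Clock, at 0.13 (SE 0.07, adjusted p = 0.206, edgeR), and Arntl did not pass the threshold in this day average. At single times Arntl was called higher at CT9 (2.08, adjusted p = 1.90e-09) and CT13 (1.93, adjusted p = 7.70e-09) in edgeR. It was called lower at CT1 (-0.89, adjusted p = 0.000289) and CT21 (-0.86, adjusted p = 0.00457, edgeR). Without mice SV384 and SV385 it was not called at CT1 (-0.56, adjusted p = 0.0966, edgeR). Beside these, 119 and 267 of 14618 genes were called higher at CT9 and CT13, and 11% and 0.178% lower at CT1 and CT21.

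The 3 genes had a smaller daily range in Bmal1iec-/- mice. In control mice Cry1 was lowest at CT5, at 33.7 ± 10.5 (SD, n = 4) normalised counts, and Npas2 and Nfil3 at CT9, at 63.3 ± 26.03 (SD, n = 4) and 12.8 ± 4.81 (SD, n = 4). In control mice the means of Nr1d1 and Nr1d2 were both highest at CT9. At CT5 the mean of Nr1d1 was below that at CT9 only, whereas that of Nr1d2 was below those at CT9 and CT13. Cry1 was higher at CT13 than at CT5 in control, although the mean of Nr1d2 was higher at CT13 too. Whether the level of Nr1d1 or Nr1d2 sets the minima of these genes was not tested. The Bmal1iec-/- group means stayed between 253 and 336 for Cry1, 254 and 304 for Npas2 and 86.7 and 97.7 for Nfil3. From the lowest to the highest group mean, Nfil3 spanned 7.56-fold in control and 1.13-fold in Bmal1iec-/- mice, Cry1 5.62-fold and 1.33-fold, and Npas2 3.44-fold and 1.19-fold. The genotypes did not overlap at 6 of 6 times for Cry1 and Npas2, with Bmal1iec-/- above control, and at 4 of 6 times for Nfil3. The share of all genes with every Bmal1iec-/- value above every control value was 10.8% at CT1, 2.21% at CT5, 1.98% at CT9, 6.63% at CT13, 2.05% at CT17 and 2.24% at CT21. Npas2 was not called at CT1, at 0.23 (SE 0.14, adjusted p = 0.225, edgeR), or 0.14 (adjusted p = 0.728, edgeR) without mice SV384 and SV385. At CT21 control mice had 96.9 ± 22.3 and Bmal1iec-/- mice 95.1 ± 8.63 normalised counts of Nfil3 (SD, n = 4 each). A change of rhythm was called for all 3 (adjusted p from 2.46e-10 for Npas2 to 4.84e-07 for Cry1, edgeR's quasi-likelihood test, Benjamini-Hochberg). Within Bmal1iec-/- mice JTK_cycle gave a p of 0.000914 (adjusted 0.0139) for Cry1, 0.119 for Npas2 and its cap of 1 for Nfil3.

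**Figure D4:**
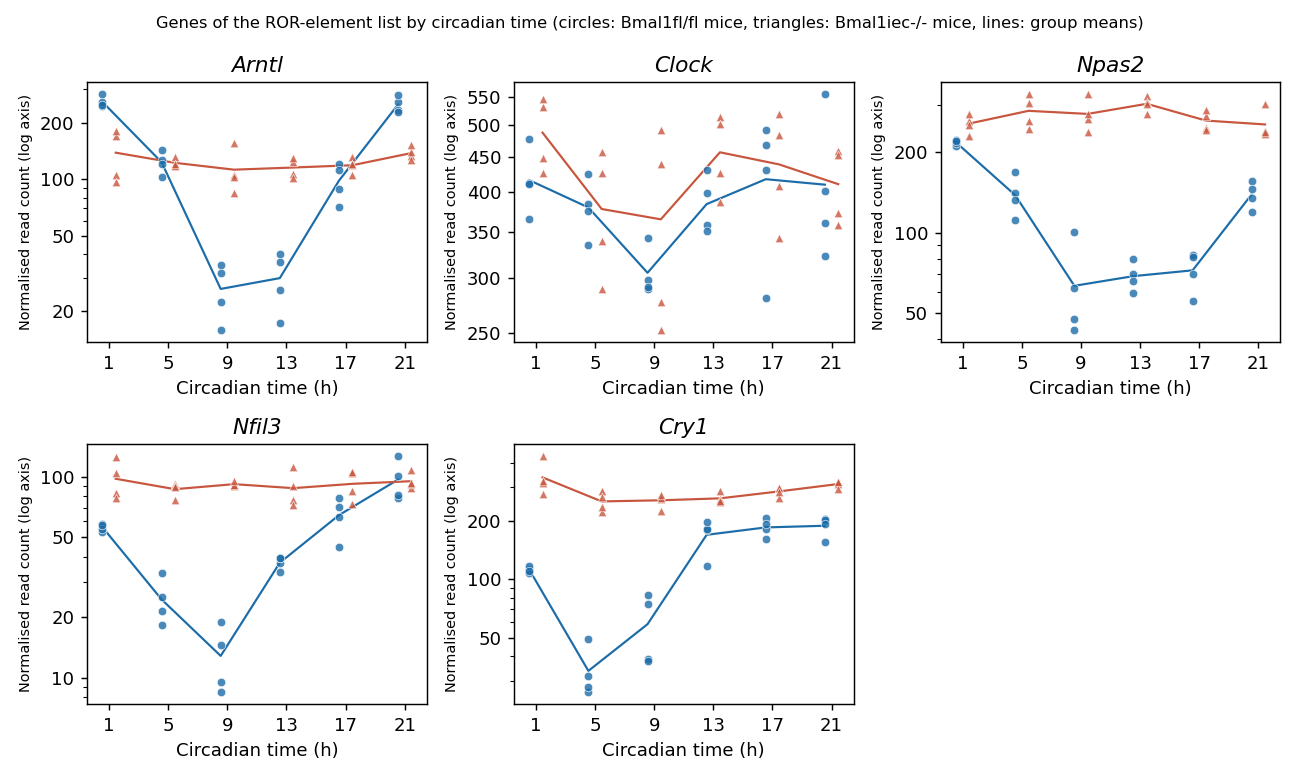
Normalised read counts (log axis, each panel with its own range) of the 5 clock genes of the ROR-element list in each mouse against circadian time in hours, with control mice as circles, Bmal1iec-/- mice as triangles and lines through the group means of 4 mice. Cry1 is lowest at CT5 and Npas2 and Nfil3 at CT9 in control mice. These 3 genes have a smaller daily range in Bmal1iec-/- mice. The control course of Arntl, from 26.2 to 258, is replaced by group means of 112.5 to 138 in Bmal1iec-/- mice. Without mice SV384 and SV385 the Bmal1iec-/- mean of Arntl at CT1 is 176.

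Of 17 metabolic and immune genes known as REV-ERB targets, 10 were expressed well enough to be tested, of which 1 was higher and 2 were lower (median log2 fold change -0.15), beside 6.4% and 5.56% of all genes. An unadjusted p under 0.05 was found for 5 of the 10. Insig2, a regulator of sterol synthesis, rose by 0.18 (SE 0.04, adjusted p = 0.00208), whereas Pck1, an enzyme of gluconeogenesis, fell by 0.33 (SE 0.07, adjusted p = 0.000936) and the cytokine gene Il1b by 0.62 (SE 0.18, adjusted p = 0.0183) in edgeR (Benjamini-Hochberg). Il1b was at only 8.49 ± 3.05 (SD, n = 24) in control and 5.54 ± 2.65 (SD, n = 24) normalised counts in Bmal1iec-/- mice.

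Of 10 other clock genes driven through E-boxes, 5 were lower, 1 was higher and 4 were not called, beside 5.56% of all genes lower and 6.4% higher, with a median log2 fold change of -0.31, smaller in size than that of Nr1d1 and Nr1d2. Ciart, a repressor of the clock, fell by 1.38 (SE 0.16, adjusted p = 1.28e-08), Per3 by 0.90 (SE 0.11, adjusted p = 4.32e-08) and Dbp, a D-box activator, by 0.84 (SE 0.14, adjusted p = 2.07e-05). Cry2 rose by 0.28 (SE 0.08, adjusted p = 0.0186), all in edgeR (Benjamini-Hochberg). The other 2 that fell were Tef, by 0.45, and Per1, by 0.56 on the log2 scale. At single times the direction of this list changed. At CT1, over all 48 mice, 3 were called higher and 0 lower (median log2 fold change 0.53), beside 2010 of 14618 genes higher. At CT5 2 were higher and 0 lower, beside 37 of 14618 genes higher. At CT9, CT13 and CT17 4, 5 and 2 were lower and 0 higher, beside 0.65%, 1.75% and 0.54% of all genes lower. At CT21 0 were called.

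Averaged over the day, no change was detected in the genes through which REV-ERB proteins act. Of 6 corepressor genes, which include Ncor1 and Hdac3, 0 were called in edgeR, and likewise 0 of 6 genes that govern REV-ERB protein turnover, which include Fbxw7, Siah2 and Gsk3b. In both lists 0 genes had an unadjusted p under 0.05 in this day average, and DESeq2 called 0. At single circadian times 1 corepressor gene was called lower in edgeR, at CT13, beside 1.75% of all genes. Ncor1 had a log2 fold change of 0.04 (SE 0.04, adjusted p = 0.526), Hdac3 of 0.05 (SE 0.03, adjusted p = 0.301) and Gsk3b of -0.07 (SE 0.04, adjusted p = 0.266, edgeR). Of 9 genes of the synthesis and breakdown of heme, the ligand of REV-ERB proteins, 0 were called in edgeR and in DESeq2, and 2 had an unadjusted p under 0.05. Alas1, the first enzyme of heme synthesis, was at -0.05 (SE 0.13, adjusted p = 0.843, edgeR). At CT1, over all 48 mice, 3 heme genes were called higher and 2 lower in edgeR, beside 24.7% of all genes called. At CT13 1 heme gene was called lower, beside 1.75% of all genes.

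Among 16 further nuclear receptors of the same NR1 class, 13 were tested, and 2 were higher and 3 lower, beside 6.4% and 5.56% of all genes. The bile acid receptor gene Nr1h4 rose by 0.28 (SE 0.05, adjusted p = 9.04e-05) and Thra by 0.24 (SE 0.05, adjusted p = 0.000205). The vitamin D receptor gene Vdr fell by 0.26 (SE 0.04, adjusted p = 1.54e-06), Rora by 0.27 (SE 0.08, adjusted p = 0.0177) and Ppara by 0.25 (SE 0.08, adjusted p = 0.0458), all in edgeR (Benjamini-Hochberg). These changes were small beside those of Nr1d1 and Nr1d2.

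**Figure D5:**
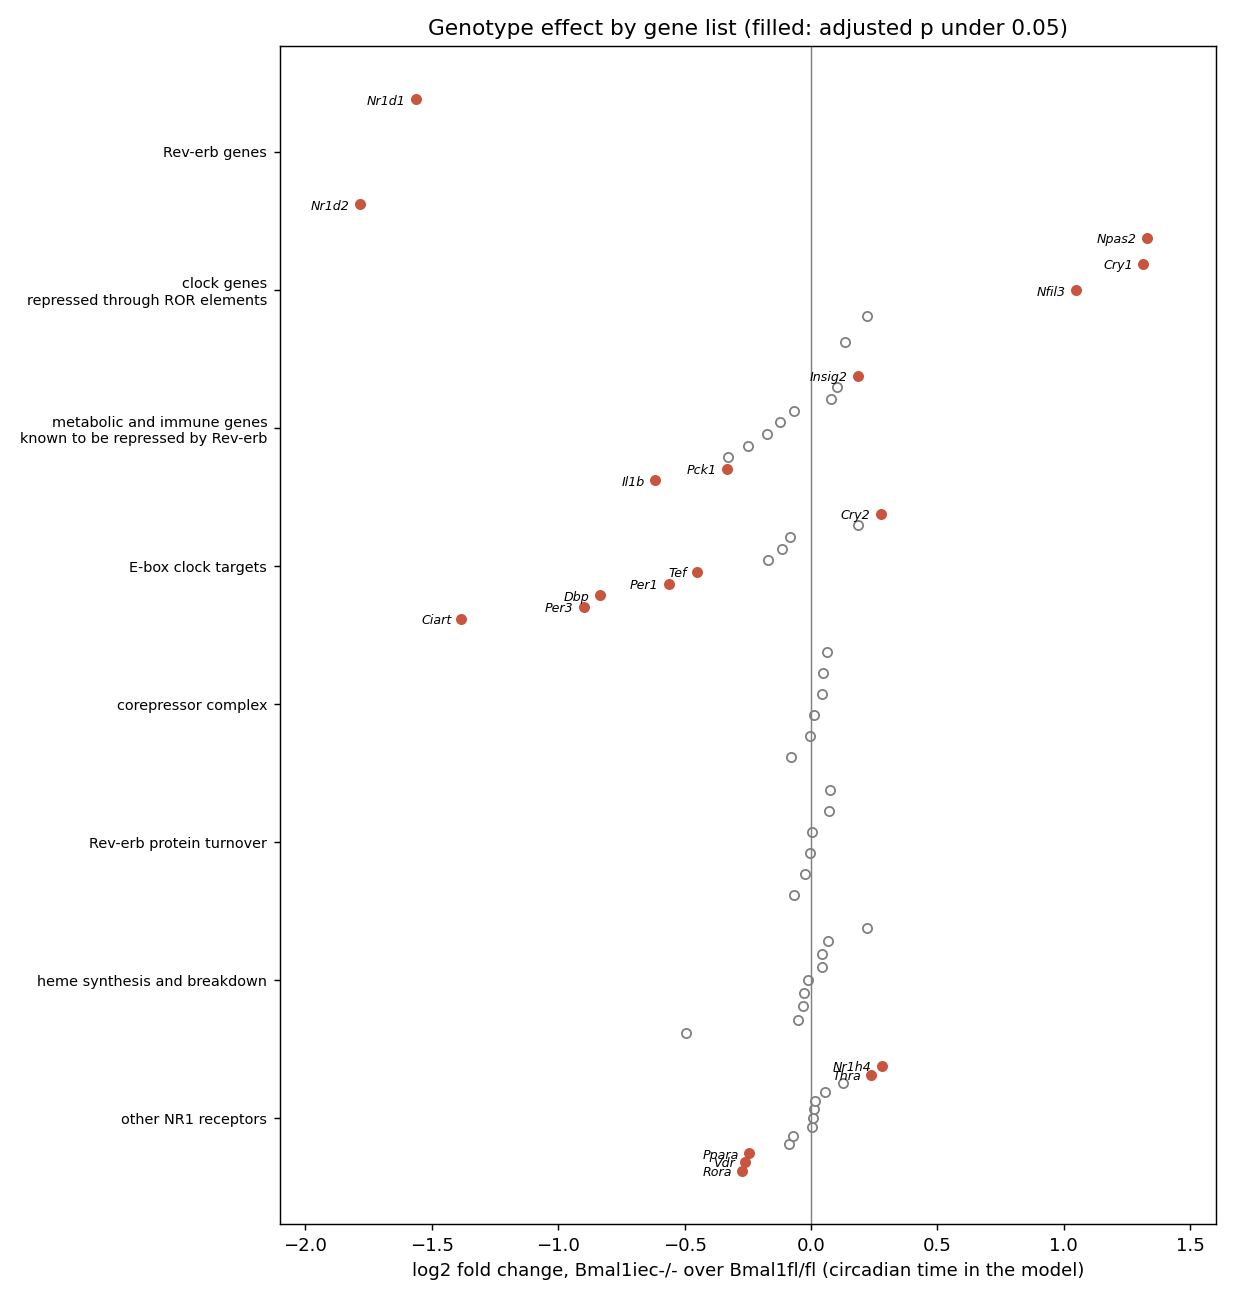
log2 fold change of each tested gene in Bmal1iec-/- over control mice, by gene list, with filled points and names for genes with an adjusted p under 0.05 in edgeR and open points for the rest. Nr1d1 and Nr1d2 lie at -1.56 and -1.79, and 3 genes of the ROR-element list between 1.05 and 1.33.

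Thra, the thyroid hormone receptor gene on the plus strand, overlaps the 3′ end of Nr1d1 by 1075 bases, of which 263 are exon of Nr1d1 (8.55% of its exon bases). Reads that overlapped several features were left out of the counts, and the strand setting of the counting is not given in the sources used here, so reads of the overlap cannot be assigned with certainty. Thra moved the opposite way to Nr1d1, from 257 ± 31.4 (SD, n = 24) to 303 ± 31.8 (SD, n = 24) normalised counts, and its daily range was 1.28-fold in control against 40.0-fold for Nr1d1. Nr1d2, which overlaps no other annotated gene, had 29.0% of its control level left and Nr1d1 33.9%.

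Over all 48 mice, the gene whose pattern of log2 normalised counts was most like that of Nr1d1 was Nr1d2 (Pearson's r = 0.87 across mice, which share genotype and circadian time, so that r is a description only). It was followed by Cdc25b, a phosphatase of the cell cycle (r = 0.86), Ccdc116 (0.84), the annexin Anxa7 (0.83) and the transglutaminase Tgm3 (0.80). Those running opposite to Nr1d1 were Spcs3, a subunit of signal peptidase (r = -0.84), the copper transporter Slc31a1 (-0.84), Sumo3 (-0.84), Prkar2a (-0.84) and Saraf (-0.82). After Nr1d1, the patterns most like that of Nr1d2 were those of Syt7 (r = 0.84), the sulfate transporter Slc13a1 (0.81), Aldh1a1, an enzyme of retinoic acid synthesis (0.81), and Hpgd, which breaks down prostaglandins (0.78). Running opposite to Nr1d2 were Twf1 (r = -0.86), Ergic1 (-0.86), Cmtm6 (-0.84), Ybx3 (-0.84) and the monocarboxylate transporter Slc16a1 (-0.83).

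Of these genes, Tgm3 fell between genotypes by 1.76 in log2 units (SE 0.25, adjusted p = 7.40e-07) and Slc13a1 by 1.197 (SE 0.09, adjusted p = 2.69e-15), both in edgeR (Benjamini-Hochberg). Within genotypes, r between Nr1d1 and Nr1d2 was 0.88 over 24 control and 0.91 over 24 Bmal1iec-/- mice, whereas r between Nr1d2 and Slc13a1 was 0.69 and 0.55. Few of the genes named here recurred when ranked within a single genotype. Of the 5 highest and 5 lowest, 2 recurred in control and 2 in Bmal1iec-/- mice for Nr1d1, and 2 and 1 for Nr1d2.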

How the data were processed

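RNA from the colon of 48 mice was sequenced by the authors (TruSeq Stranded kit, paired reads). Per the labels and the study's methods, the authors trimmed reads with Trimmomatic 0.39, aligned them to mm10 with STAR 2.7.5c and counted exonic reads with featureCounts 1.4.6. The authors deposited raw counts, 1 whole number per gene and mouse, not normalised. Totals per mouse were 3144997 to 4785844 reads, and intervals and floors from counts cover counting error only.

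The members and lists, and with them the tests and alternatives, were chosen with earlier results of these data known. Symbols came from GENCODE vM21 (55141 of 55401 identifiers matched) and promoters from RefSeq (GRCm38.p6). Replicates of a group are separate mice. Mice of 1 group differed by more than counting error, the chi-square per gene being 2.01 to 16.3 over 72 pairs. The 14618 genes kept by filterByExpr were tested with edgeR 4.0.16 (TMM, quasi-likelihood F test, Benjamini-Hochberg, called at an adjusted p under 0.05) with genotype plus circadian time, or the 12 groups, as the model. Normalised counts used DESeq2 1.42.0 size factors, and a log2 scale added 1. JTK_cycle was an own implementation (24 h, 12 phases, exact null for each phase, smallest p times 12 and capped at 1). All 48 mice entered. Per the study's methods, samples of low quality were removed. A principal component plot of the study shows 46 colon samples, fewer than the 48 used here, and the difference is not explained there. Alternatives left out mice SV384 and SV385, any single mouse, the filter or the time term, or used RLE, DESeq2 or a fold change over 1.5. Genes were named by a rule: the members, Arntl, Thra, the ROR-element list, up to 3 genes per direction of each other list, and the 5 most and 5 least alike in pattern. Some genes of the lists are not reported here and are left out of the counts. Marker genes, and list members given as unchanged, were named beside it. The fits were tested on simulated data. Software was R 4.3.3 and Python 3.11.15 (scipy 1.17.1, numpy 2.4.6, pandas 2.3.3; figures, matplotlib 3.10.9).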

Additional observations from a re-analysis of the deposited data

Results flagged for a closer look

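Each of the 12 groups of 4 mice was tested for a single distant value of Nr1d1 and of Nr1d2, 24 tests in all. Of these 2 found one, where chance gives about 1 in 20. Both genes were measured in the same mice, so the tests are not independent. Nr1d2 had 161 normalised counts in the Bmal1iec-/- mouse SV418 at CT9 against 227 to 235 in the other 3, and 338 in the control mouse SV398 at CT17 against 298 to 302. Mouse SV418 was also lowest for Nr1d1 (59.2) and highest for Arntl (157) in its group, and its mean correlation with that group was 0.962.

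The genotype difference depended on circadian time for 4 genes of the ROR-element list, with an adjusted p for the interaction of 1.88e-12 for Arntl, 4.23e-10 for Cry1, 3.58e-09 for Nfil3 and 2.62e-09 for Npas2 (edgeR's quasi-likelihood test, Benjamini-Hochberg). Their change of rhythm had an adjusted p of 9.40e-14 for Arntl, 4.84e-07 for Cry1, 3.99e-10 for Nfil3 and 2.46e-10 for Npas2 in the same tool.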

How the results depend on the processing

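No paired analysis was possible because each replicate number names 1 mouse and no number is shared between groups. Every genotype effect of Nr1d1 or Nr1d2 that was called, overall or at a single time, kept its direction and call under the alternatives run, single mice left out included. Weak night counts of Nr1d1 (4 to 62 reads per mouse at CT17 and CT21) limit the calls there. DESeq2 called the Nr1d1 interaction (adjusted p = 0.00749), the effect at CT17 (-1.26) and the steps CT17 to CT21 in control (-1.63) and CT21 to CT1 in Bmal1iec-/- mice (1.32). So did edgeR without a filter on low counts (adjusted p = 1.17e-08, -1.26, -1.62 and 1.31), which also called CT17 to CT21 in Bmal1iec-/- mice (-1.35). The control step CT17 to CT21 was called too over 46 mice (-1.62) and with RLE (-1.62). The causes were not tested.

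With single mice left out, the Nr1d1 interaction had an adjusted p of 0.0237 to 0.271 in edgeR, and its step CT17 to CT21 in control ranged from -1.75 to -1.43 (called without SV417) and CT5 to CT9 in Bmal1iec-/- mice from -0.46 to 0.061. Steps of Nr1d2 ranged from 0.71 to 0.87 (CT5 to CT9, control), -1.47 to -0.97 (CT17 to CT21, Bmal1iec-/-) and 0.67 to 0.99 (CT21 to CT1, Bmal1iec-/-). The log2 ratio difference ranged from -0.31 to -0.22 over all times, -0.32 to 0.18 at CT9 and -0.40 to 0.0012 at CT5. Called heme genes numbered 0 to 2.

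With 5 added to counts the ratio difference was -0.34. On log2 values Nr1d1 had a fitted peak time of 8.25 h in Bmal1iec-/- mice. Without circadian time in the model, Arntl was at -0.077, and Cry2, Dbp and Ppara were no longer called. Of the 5 genes with the highest and 5 with the lowest r with Nr1d1, 2 were shared within control and 2 within Bmal1iec-/- mice. For Nr1d2 these numbers were 2 and 1. At a fold change over 1.5, 3 E-box genes, 1 metabolic or immune gene and 0 NR1 receptors were called. Without a filter 1 heme gene was called. Deviations of Nr1d1 and Nr1d2 had r = 0.35 in Bmal1iec-/- mice, and those of Nr1d2 and Arntl -0.15 over 46 mice, -0.19 in control and -0.15 in Bmal1iec-/- mice.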

Other observations

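Mice of the same group also differed together in both transcripts, an analysis chosen after the data had been seen. Deviations of log2 normalised counts from the group mean were correlated between Nr1d1 and Nr1d2 with Pearson's r = 0.49 (permutation within groups, p = 0.000320, adjusted over 3 relations 0.000960) and Spearman's rho = 0.57 (permutation p = 0.000200, adjusted 0.000600) over 48 mice. Without the 2 mice farthest on Nr1d1, r was 0.47. Without mice SV384 and SV385, r was 0.43 (permutation p = 0.00175, adjusted 0.00525). Within genotypes r was 0.59 over 24 control mice (permutation, adjusted p = 0.0295) and 0.35 over 22 Bmal1iec-/- mice (permutation, adjusted p = 0.148). Size factors and each mouse's state at killing enter both genes, and their part was not tested.

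Deviations of Nr1d1 and Arntl had r = -0.18 (permutation p = 0.315, adjusted 0.472) and rho = -0.15 (permutation p = 0.359, adjusted 0.538) over 48 mice, or r = -0.04 without the 2 farthest. For Nr1d2 and Arntl r was 0.08 (permutation p = 0.6005, adjusted 0.6005) and rho 0.04 (permutation p = 0.814, adjusted 0.814), or r = 0.07 without the 2 farthest. Without mice SV384 and SV385, Nr1d1 and Arntl had r = -0.35 (permutation p = 0.0387, adjusted 0.0581) and rho = -0.32 (permutation p = 0.0456, adjusted 0.0683), and Nr1d2 and Arntl r = -0.15 (permutation p = 0.270). No adjusted p passed the threshold.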
